A study of Mus musculus with 14 samples.

Results

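Hrg, the gene of histidine-rich glycoprotein, lies in a row of cystatin-family genes on mouse chromosome 16 with Ahsg, Fetub, Kng2 and Kng1. These 5 genes were taken by symbol from the liver and kidney count tables, which list 22263 genes in all. Hrg had been picked because its level was lower on high salt in liver and higher on high salt in kidney, so its difference by diet is given here as a description with no test. The 4 neighbours were taken for their place beside it, and the question was whether they shared the opposite moves of Hrg.

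The proteins of this cluster are made mainly by hepatocytes and secreted into plasma. They share cystatin-type domains, a fold first known from inhibitors of cysteine proteases, although not every member inhibits such a protease. Kininogens are cut by kallikreins to release bradykinin, a short-lived peptide that widens vessels and promotes sodium excretion by the kidney. Fetuins bind calcium phosphate or block metalloproteases, and histidine-rich glycoprotein bridges heparin, plasminogen, fibrinogen, immune complexes and metal ions.

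All mice were adult males of 12 weeks that carried a transgene of the human angiotensinogen gene with the -6A promoter haplotype, labelled Hap -6A. The groups differed by diet, labelled Normal Diet and High Salt, and by tissue, with 4 liver and 3 kidney libraries per diet. No group without the transgene was analysed here, the sources used here give neither the salt content nor the duration of the diet, and nothing says which liver and kidney came from the same mouse. Nothing beyond separate titles says that libraries of a group came from separate animals, so p-values measure the spread between these libraries. Liver libraries on the normal diet are called 1 to 4, those on high salt HS5 to HS8 after their columns, and kidney libraries 1 to 3 in each diet.

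The summed counts per library were 37267778 to 51487382 in liver and 16046094 to 22004927 in kidney. Normal diet liver libraries 1 and 2 stood apart with 2.30% and 2.06% of counts from the mitochondrial genome, against 11.3% to 29.6% in the other liver libraries. Libraries HS5 and HS6 were closer to each other than any other pair within a liver group, with a standard deviation of 0.133 in log2 CPM differences over genes against 0.348 or more, yet they differed by more than sampling noise. The median chi-square per gene was 0.867 between them, where sampling noise alone gives 0.455. They were kept as separate libraries, and liver results were also computed with the pair summed to 1. In kidney, normal diet library 1 stood apart, at 0.807 and 0.837 from the other normal diet libraries, which differed from each other by 0.265. Marker genes matched the labelled tissues. The summed level of 23 hepatocyte genes was 132594 to 177703 CPM (counts scaled to a common library total, with TMM library sizes) in liver and 130 to 255 CPM in kidney. The sum of 5 proximal tubule genes was 1893 to 3293 CPM in kidney and 0.476 to 7.84 CPM in liver. EdgeR called no member of the 13 marker lists by diet in either tissue, where it called 1% of liver and 0% of kidney genes. This lack of calls does not show that the diets had like cell mixes. In liver the sums of acute phase and of stellate or fibroblast genes did not overlap by diet. The same held in kidney for distal convoluted tubule genes and for the muscle list, as given below.

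The genes run in the order Ahsg, Fetub, Hrg, Kng2, Kng1 over 191 kb, from 22891277 to 23082078 of chromosome 16 in GRCm38, by GENCODE M21. Ahsg spans chr16:22891277-22899449, Fetub chr16:22918334-22939778 and Hrg chr16:22951072-22961656, all on the plus strand. Kng2 spans chr16:22985854-23029482 on the minus strand and Kng1 chr16:23057865-23082078 on the plus strand. Hrg lies 11.3 kb after the end of Fetub and 24.2 kb before the end of Kng2, which is transcribed towards it.

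Promoter sequences are shown for the members matched in RefSeq (GRCm38.p6), because the genes sit side by side and yet differ in where and how they are expressed. Each holds 250 bases before and 50 bases after a RefSeq start, read 5′ to 3′ on the strand of the gene. Capitals mark TATAAA, the TATA box, or TTGCNNAA, a core bound by C/EBP factors, on either strand. The windows are chr16:22950822-22951121 for Hrg, chr16:22891765-22892064 for Ahsg and chr16:22918132-22918431 for Fetub, all plus strand, and chr16:23029052-23029351 on the minus strand for Kng2.
Hrg: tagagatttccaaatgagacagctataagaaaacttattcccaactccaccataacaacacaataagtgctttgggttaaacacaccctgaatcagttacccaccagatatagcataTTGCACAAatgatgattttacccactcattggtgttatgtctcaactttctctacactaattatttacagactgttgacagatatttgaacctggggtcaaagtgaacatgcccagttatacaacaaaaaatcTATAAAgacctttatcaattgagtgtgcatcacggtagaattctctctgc
Ahsg: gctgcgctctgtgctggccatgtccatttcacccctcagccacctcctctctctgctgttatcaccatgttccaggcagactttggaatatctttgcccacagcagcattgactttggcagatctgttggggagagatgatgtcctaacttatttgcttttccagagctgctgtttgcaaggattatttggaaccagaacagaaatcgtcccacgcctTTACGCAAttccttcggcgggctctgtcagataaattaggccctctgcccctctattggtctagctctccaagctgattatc
Fetub: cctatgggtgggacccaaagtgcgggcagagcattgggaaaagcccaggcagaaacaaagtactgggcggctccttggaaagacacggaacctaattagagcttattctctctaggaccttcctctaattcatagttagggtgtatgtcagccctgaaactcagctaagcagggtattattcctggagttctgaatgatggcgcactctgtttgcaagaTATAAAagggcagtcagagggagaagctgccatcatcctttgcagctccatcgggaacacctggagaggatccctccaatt
Kng2: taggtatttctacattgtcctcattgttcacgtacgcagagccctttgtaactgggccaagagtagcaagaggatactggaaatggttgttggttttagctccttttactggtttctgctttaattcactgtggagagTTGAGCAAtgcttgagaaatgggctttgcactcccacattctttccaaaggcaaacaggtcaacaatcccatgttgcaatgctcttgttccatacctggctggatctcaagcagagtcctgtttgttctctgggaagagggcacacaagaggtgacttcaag
The Hrg window holds TATAAA at its first 6 transcribed bases and TTGCACAA, which begins 133 bases before the start. Fetub holds TATAAA from 31 to 26 bases before its start. Ahsg and Kng2 each hold 1 match to TTGCNNAA and none to TATAAA. Their RefSeq starts lie 738 and 381 bases from the GENCODE gene starts, against 48 for Fetub and 0 for Hrg. The windows may thus not be at comparable starts. Over the 32851 RefSeq promoters of this length, 13.6% hold TATAAA and 10.8% hold TTGCNNAA. CAAAGTCCA, an HNF4 site, was searched on both strands, does not occur in these 4 windows, and occurs in 0.475% of all promoters. These matches describe letters only.

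Kng1 and Kng2 are near-identical copies, so the window of 60 coding bases in which they differ most is printed to show what separates their reads. In the coding sequences of GENCODE M21 they were identical at 92.8% of 1929 aligned bases, whereas every other pair of members was 60.2% to 68.7% identical. Bases 380 to 439 of both coding sequences follow, with the 16 differing bases in capitals.
Kng1: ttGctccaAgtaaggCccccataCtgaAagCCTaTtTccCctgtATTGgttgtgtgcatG
Kng2: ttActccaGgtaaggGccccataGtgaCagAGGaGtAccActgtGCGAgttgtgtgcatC
Of all stretches of 50 bases in Kng2 transcripts, 19.4% also occur in Kng1 transcripts, and 5.29% of stretches of 100 bases do. No stretch of 50 bases of Hrg, Ahsg or Fetub occurs in another member. The split of reads between the kininogens rests on the authors' estimated assignment and is less certain than the other counts.

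In liver, the whole cluster was expressed at a high level. By mean CPM Ahsg ranked 28 of 19660 genes, Kng1 69, Hrg 176, Fetub 277 and Kng2 524. Per kilobase of exon on the normal diet, on 1 scale for both tissues, Ahsg stood at 3519 ± 679 CPM (SD, n = 4), Kng1 at 716 ± 69.9, Hrg at 468 ± 21.4, Fetub at 262 ± 25.2 and Kng2 at 104 ± 17.6. The ranges of these neighbours in the order did not overlap, with the lowest Hrg library at 456 and the highest Fetub library at 293 CPM per kilobase.

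In kidney the order was another one. Kng2 ranked 531 of 20203 genes, Hrg 8370, Kng1 13642, Ahsg 14500 and Fetub 15871. Per kilobase on the normal diet Kng2 stood at 56.8 ± 2.78 CPM (SD, n = 3) and Hrg at 1.50 ± 0.391. Ahsg at 0.540 ± 0.631, Kng1 at 0.319 ± 0.170 and Fetub at 0.165 ± 0.0957 had overlapping ranges, so their order is not resolved. The highest Ahsg library, at 1.26 CPM per kilobase, also reached above the lowest Hrg library, at 1.08. In bulk tissue, fewer cells of a type and less RNA per cell cannot be told apart.

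**Figure D1:**
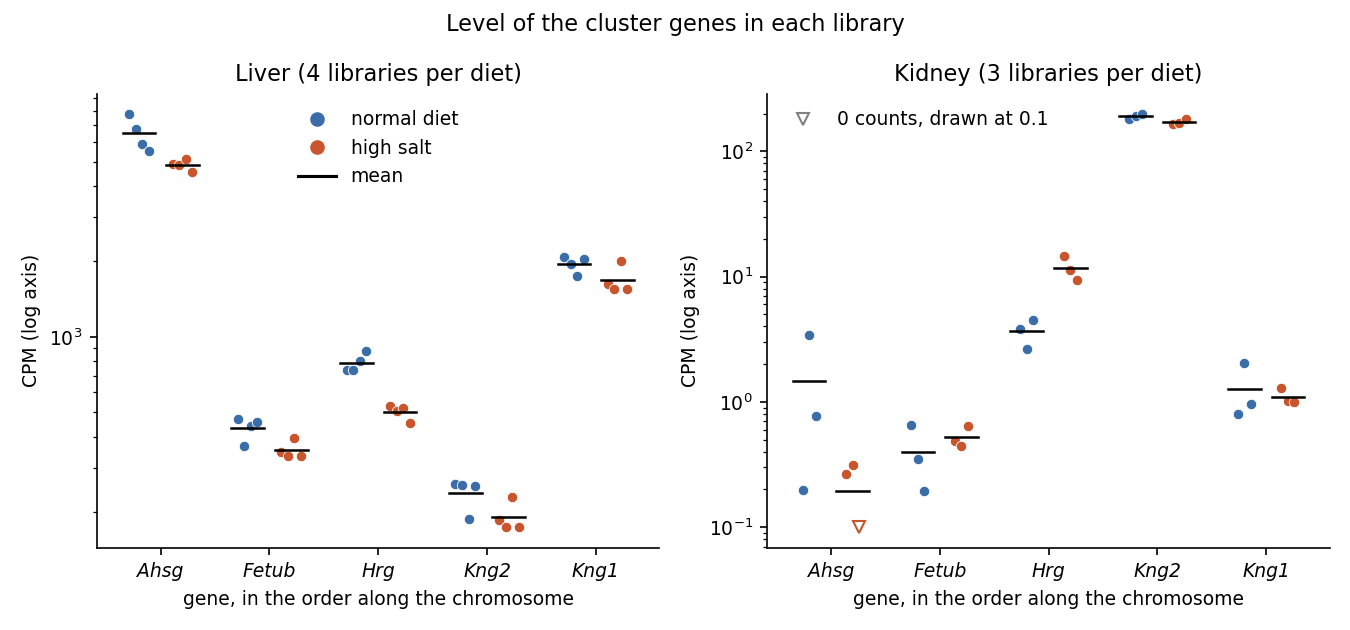
Level of each member in each library, in CPM on a log axis, in the order along the chromosome, for liver (left, 4 libraries per diet) and kidney (right, 3 libraries per diet); points are libraries, lines are group means, and the open triangle is a library with 0 Ahsg counts. Hrg is lower on high salt in all 4 liver libraries and higher in all 3 kidney libraries, while Kng2 is the one abundant member in kidney.

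Hrg encodes a plasma glycoprotein whose histidine-rich region binds zinc and heparin. Its liver level was 740, 735, 798 and 881 CPM in normal diet libraries 1 to 4 and 530, 505, 520 and 452 CPM in HS5 to HS8. All 4 high salt libraries lay below all 4 normal diet libraries, as for 6.05% of the 15130 liver genes tested. The means were 788 ± 68.1 and 502 ± 34.5 CPM (SD, n = 4 each), and the fitted log2 fold change was -0.65. Over 21 alternatives in scaling, method and libraries left out it ran from -0.74 to -0.38, and it was -0.67 with HS5 and HS6 summed.

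In kidney Hrg stood at 3.85, 2.64 and 4.50 CPM on the normal diet and at 14.6, 11.3 and 9.46 CPM on high salt. These levels rest on 45 to 93 and on 180 to 327 counts per library. Every high salt library was above every normal diet library, as for 3.85% of the 15847 kidney genes tested. The means were 3.66 ± 0.947 and 11.8 ± 2.60 CPM (SD, n = 3 each), a fitted log2 fold change of 1.68. Over 18 alternatives it ran from 1.50 to 1.88, and it was 1.72 without normal diet library 1. The difference between the tissues, liver minus kidney, was -2.33 on the log2 scale. Of the 13669 genes tested in both tissues, 42 (0.307%) were lower in liver and higher in kidney without overlap, and Hrg was chosen from among such genes. Beside Hrg in kidney, 4 distal convoluted tubule genes summed to 652 to 704 CPM on the normal diet and to 438 to 570 CPM on high salt, without overlap. All 4 had a log2 fold change below 0, as did 53.7% of kidney genes tested. By edgeR 2 had an unadjusted p under 0.05, as did 2.01% of kidney genes. The muscle list had 1 gene in the kidney table, Myh6, at 1.64 to 1.89 and 0.126 to 0.357 CPM, which DESeq2 called. Of the 13 marker lists, the distal convoluted tubule and muscle lists are given here because their sums did not overlap by diet. The part of these genes in the Hrg result was not tested.

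None of the 4 neighbours was called by diet in liver, where edgeR's quasi-likelihood test with Benjamini-Hochberg adjustment called 1% of 15130 genes. All 4 had a log2 fold change below 0, as did 52% of all genes tested. With Hrg at -0.65, their values ran from -0.42 to -0.22. The same count of 0 was found under all 21 alternatives, HS5 and HS6 summed among them, where 12 genes were called in all against 152.

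Ahsg encodes fetuin-A, a carrier that keeps calcium phosphate in solution. Its liver level was 7744, 6762, 5906 and 5519 CPM in normal diet libraries 1 to 4 and 4880, 4867, 5122 and 4547 CPM in HS5 to HS8. The diets did not overlap, though normal diet library 4 came close to HS7. The means were 6483 ± 988 and 4854 ± 236 CPM (SD, n = 4 each), with a log2 fold change of -0.42 (95% interval -0.91 to 0.07), and edgeR's adjusted p was 0.300. Ahsg was the only neighbour without overlap, against 6.05% of genes lower in this way.

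Fetub encodes fetuin-B, an inhibitor of the egg metalloprotease ovastacin. It stood at 468, 368, 439 and 457 CPM on the normal diet and at 347, 333, 396 and 336 CPM on high salt. Normal diet library 2 lay below HS7, so the diets overlapped. The log2 fold change was -0.29 (95% interval -0.65 to 0.06; edgeR adjusted p = 0.314).

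Kng1 encodes the main kininogen of plasma, the source of bradykinin. Its liver level was 2081, 1947, 1753 and 2050 CPM on the normal diet and 1627, 1546, 2010 and 1548 CPM on high salt. Library HS7 lay within the range of the normal diet and the other 3 high salt libraries below it. The log2 fold change was -0.22 (95% interval -0.65 to 0.21; edgeR adjusted p = 0.526).

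Kng2, the second mouse kininogen gene, stood at 259, 255, 187 and 254 CPM on the normal diet and at 185, 174, 230 and 175 CPM on high salt. Normal diet library 3 was low and HS7 was high, as they were for Kng1 among their groups. The log2 fold change was -0.32 (95% interval -0.71 to 0.06; edgeR adjusted p = 0.311). The intervals of all 4 neighbours include 0. Without normal diet libraries 1 and 2, Ahsg stood at -0.23 and Kng2 at -0.21. With library totals alone as the scale, the median of all liver genes moved by 0.27 on the log2 scale. Ahsg then stood at -0.17, Fetub at -0.033, Kng2 at -0.086, Kng1 at 0.028 and Hrg at -0.38. Each of them, neighbours and Hrg alike, had moved up by about as much as that median. Relative to that median Hrg was at -0.63 under both scales, and the neighbours likewise changed little.

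Of the 23 hepatocyte genes, 21 had a log2 fold change below 0, with a median of -0.42 against -0.02 over all genes. EdgeR called none of them, with 8 at an unadjusted p under 0.05, and DESeq2 called 3. Over all liver genes, 3205 of 15130 had an unadjusted p under 0.05 by edgeR, and DESeq2 called 1094 of 19567. The 12 acute phase genes, which the liver raises in inflammation, summed to 8381 to 87276 CPM on the normal diet and to 4797 to 6220 CPM on high salt. All 12 were below 0 with an unadjusted p under 0.05, edgeR called none, and DESeq2 called 3. Without normal diet library 3 edgeR called 6 of them, beside 765 of 15471 liver genes. Without library 4 it called 5, beside 409 of 15270. The 5 stellate or fibroblast genes summed to 65.4 to 124 CPM on the normal diet and to 133 to 155 CPM on high salt, and all 5 were above 0, with none called by edgeR and 2 by DESeq2. Normal diet library 4 had the highest acute phase sum and also the highest Hrg level. The other normal diet libraries ran the other way. Library 3 had an acute phase sum of 8381 CPM with Hrg at 798 CPM. Libraries 1 and 2 had sums of 13439 and 14063 CPM with Hrg at 740 and 735 CPM. The part of these marker genes in the Hrg result was not tested.

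In kidney none of the neighbours was called, with 0% of 15847 genes called by edgeR. At an unadjusted p under 0.05 edgeR took 2.01% of genes and none of the 3 neighbours tested, and DESeq2 called 13 genes. The count for the neighbours was 0 in all 18 alternatives, of which 17 called no gene at all.

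Kng2 was the neighbour with enough reads for a close comparison. Its kidney level was 181, 192 and 198 CPM on the normal diet and 165, 170 and 182 CPM on high salt. High salt library 3 reached the lowest normal diet library, so the diets overlapped. The log2 fold change was -0.14 (95% interval -0.57 to 0.28; edgeR adjusted p = 0.9996).

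Fetub had 13, 6 and 4 counts in the normal diet kidneys and 11, 7 and 14 on high salt, at 0.194 to 0.649 and 0.441 to 0.636 CPM. Its log2 fold change was 0.40 (95% interval -0.87 to 1.66; edgeR adjusted p = 0.9996). It was 0.058 when normal diet library 3 was left out, 0.23 when high salt library 3 was, and 0.71 on the deposited normalized values with a pseudocount of 0.1. Kng1 stood at 0.799, 2.05 and 0.968 CPM on the normal diet and at 1.30, 1.01 and 1.00 CPM on high salt. Its log2 fold change was -0.19 (95% interval -1.22 to 0.84; edgeR adjusted p = 0.9996), and it was 0.32 without normal diet library 2.

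Ahsg had 4, 58 and 16 counts on the normal diet and 6, 5 and 0 on high salt in kidney, under the filter for testing in that tissue. A count of 0 only places a library under 3 counts. Normal diet library 2, which held 58 of them, also had the highest level of Alb, the albumin gene of hepatocytes, at 35.7 CPM.

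**Figure D2:**
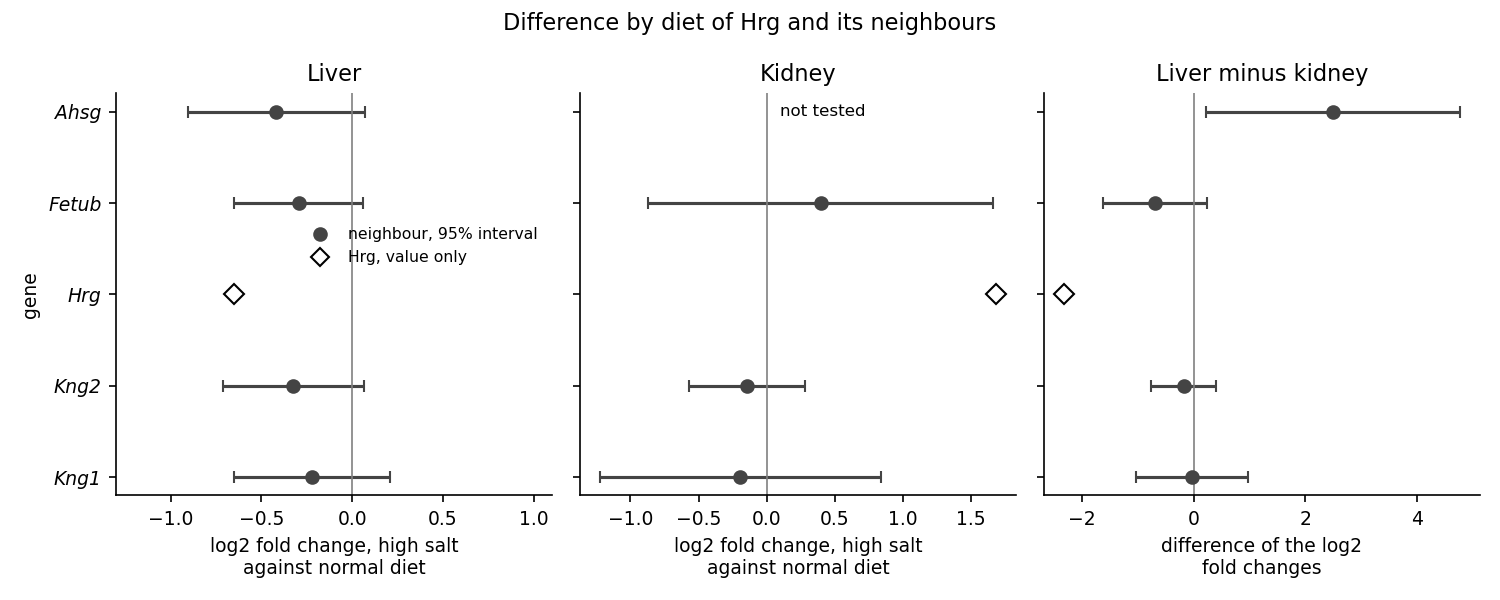
Log2 fold change of high salt against normal diet in liver and in kidney, and the difference of these values (liver minus kidney); circles are the 4 neighbours with 95% intervals from edgeR, open diamonds are Hrg, shown as a value only, and Ahsg was under the filter in kidney. Hrg sits at -0.65 in liver and 1.68 in kidney, each interval of a neighbour in the single tissues includes 0, and the difference of Ahsg entered that fit through liver counts alone.

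The test of the difference between the tissues addresses the question of shared opposite moves. With edgeR it called no gene at all, so the lack of a call for a neighbour cannot decide that question. In the fit of all 14 libraries none of the 3 neighbours tested in both tissues was called, as none of 16633 genes was (0%), although 10.1% had an unadjusted p under 0.05. DESeq2 called 147 genes and none of the neighbours. The log2 difference, liver minus kidney, was -0.69 for Fetub (95% interval -1.62 to 0.24), -0.18 for Kng2 (-0.76 to 0.40) and -0.03 for Kng1 (-1.04 to 0.98). The edgeR adjusted p was 0.599, 0.850 and 0.991. Fetub stood at -1.26 without kidney normal diet library 1 and at -0.35 without kidney normal diet library 3.

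Ahsg entered this fit through its liver counts alone, so its difference of 2.49 is given with no test. Without kidney normal diet library 2 the value was 0.96, and without kidney high salt library 3 it was 1.86.

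Ratios within a library do not depend on its scaling. In liver the ratio of Hrg to Fetub counts was 1.58 to 2.00 on the normal diet and 1.31 to 1.52 on high salt, without overlap. Hrg to Kng1 was 0.355 to 0.455 and 0.259 to 0.327, also without overlap. Hrg to Kng2 was 2.86 to 4.27 against 2.26 to 2.91, and Hrg to Ahsg 0.0955 to 0.160 against 0.0994 to 0.109, and both overlapped. Hrg was lower relative to Fetub and Kng1 as well, but not beyond the spread relative to Ahsg and Kng2. These ratios contain the value that chose Hrg and carry no test.

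In kidney the ratio of Hrg to Kng2 was 0.0137 to 0.0227 on the normal diet and 0.0519 to 0.0883 on high salt. Hrg to Kng1 was 1.30 to 4.73 and then 9.29 to 11.1. Neither pair overlapped, whereas Hrg to Fetub was 5.92 to 23.2 and 14.9 to 29.7 and did overlap.

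**Figure D3:**
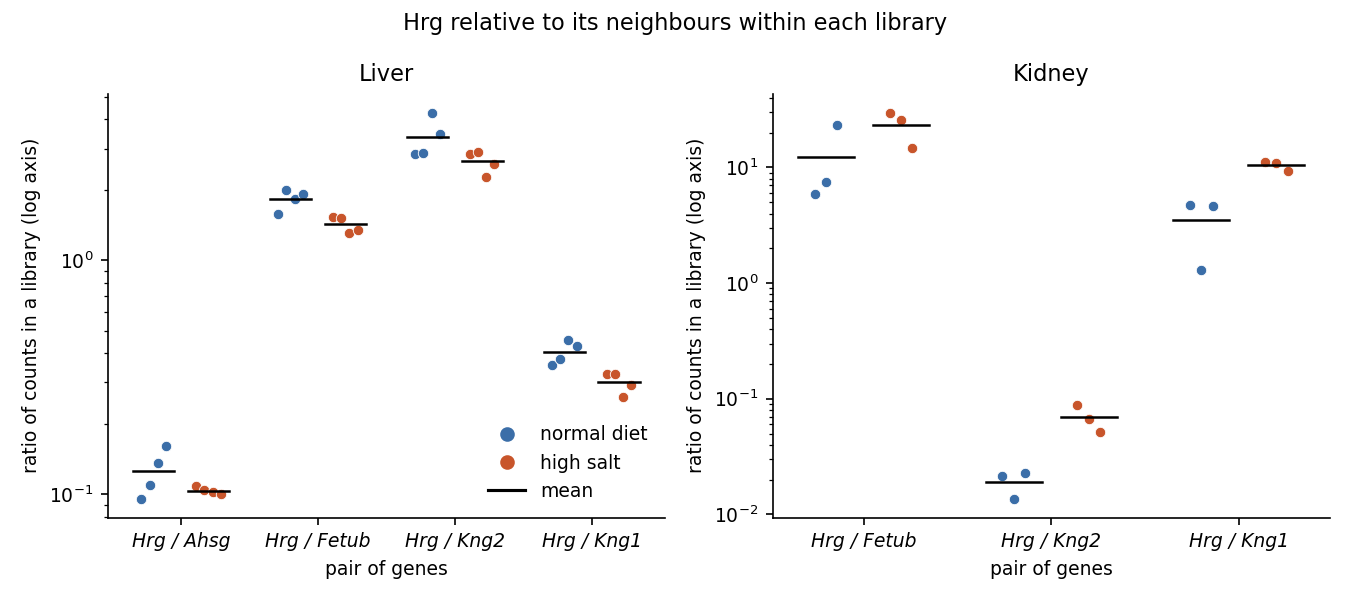
Ratio of Hrg counts to those of each neighbour within every library, on a log axis, for liver and kidney; points are libraries and lines are group means, and Ahsg is left out in kidney because 1 library has 0 counts. On high salt Hrg is lower relative to Fetub and Kng1 in liver and higher relative to Kng2 and Kng1 in kidney, without overlap.

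The contrast of the tissues did not choose the members, but the normal diet libraries it uses are among those whose values chose Hrg. The tissue difference of Hrg is therefore given with no test. On the normal diet edgeR called 65.1% of 16633 genes between liver and kidney, 32.9% as higher in liver. Kng1, Fetub and Kng2 were called higher in liver. Ahsg was higher as well, but it passed the filter only through liver, where it is high, so its value carries no test. The log2 difference was 12.69 for Ahsg, 11.14 (SE 0.49) for Kng1, 10.61 (SE 0.39) for Fetub, 8.28 for Hrg and 0.87 (SE 0.20) for Kng2. The edgeR adjusted p for Kng2 was 0.00119, and those of Kng1 and Fetub were 1.02e-10 or less. Kng2 is the exception in size, and with library totals alone its difference was 0.35 with an adjusted p of 0.217.

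The kininogens exchanged places between the organs. In liver Kng1 took 88.4% to 90.4% of the summed Kng1 and Kng2 counts on the normal diet and 89.7% to 89.9% on high salt. In kidney it took 0.447% to 1.04% on the normal diet and 0.556% to 0.789% on high salt, so nearly all kidney kininogen reads were assigned to Kng2. No difference in this share by diet passed a two-sided exact permutation test. In liver it was 89.2 ± 0.840% and 89.8 ± 0.0742% (SD, n = 4 each; exact p = 0.143, 0.286 adjusted over 2 tests). It was 0.660 ± 0.331% and 0.650 ± 0.123% in kidney (SD, n = 3 each; exact p = 1, with 0.1 the smallest the design allows). Without liver normal diet library 3 the liver difference was 1.05 in place of 0.646 percentage points (exact p = 0.0286, the smallest possible).

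**Figure D4:**
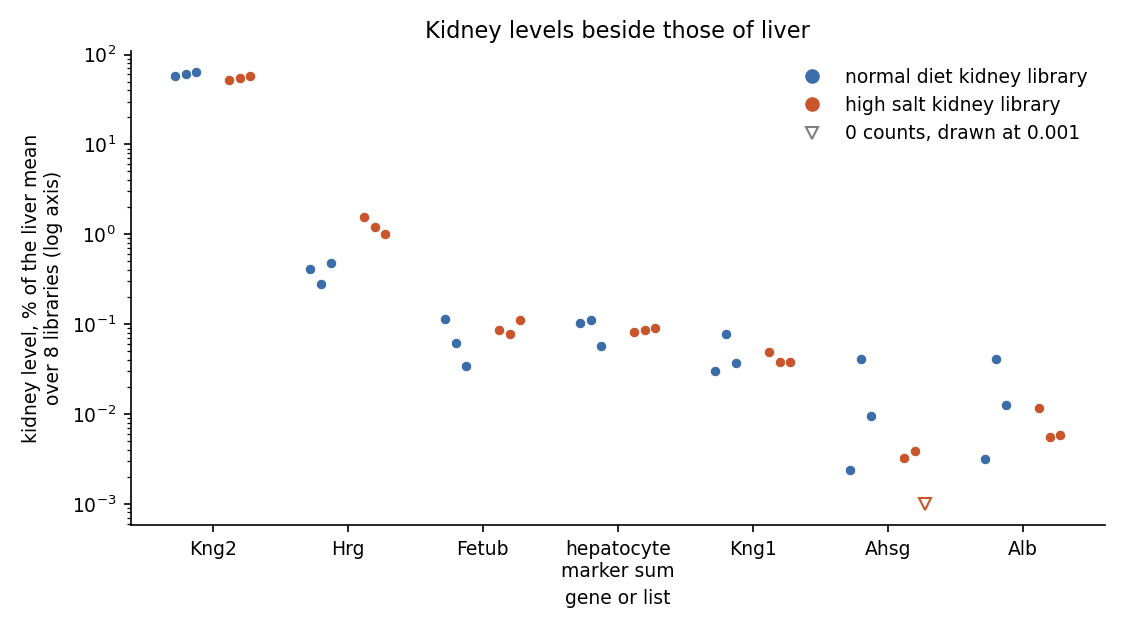
Level in each kidney library as a percentage of the mean of the 8 liver libraries, on a log axis, for the members, the sum of 23 hepatocyte markers and Alb; points are kidney libraries by diet and the triangle is a library with 0 Ahsg counts. Kng2 lies at 52.7% to 63.4%, Hrg is above the hepatocyte sum in all 6 libraries, and Ahsg overlaps Alb.

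Set against the liver mean on 1 scale, Kng2 in kidney reached 52.7% to 63.4% of its liver level. Hrg reached 0.280% to 0.481% on the normal diet and 1.00% to 1.55% on high salt. The 23 hepatocyte genes together reached 0.0568% to 0.111% and Alb 0.00311% to 0.0412%, both with overlapping diets. Hrg was above both in each of the 6 kidney libraries. Fetub at 0.0340% to 0.113%, Kng1 at 0.0300% to 0.0771% and Ahsg at 0% to 0.0409% overlapped the hepatocyte list or lay below it. The hepatocyte sum and Alb did not rank the kidney libraries alike. Normal diet library 1 had the lowest Alb, at 0.00311%, with the sum at 0.103%. Normal diet library 3 had the lowest sum, at 0.0568%, with Alb at 0.0127%. Normal diet library 2 was highest in both. The sum may thus not measure hepatocyte RNA alone in kidney. Of the 18 hepatocyte genes tested in kidney, 11 had a log2 fold change below 0, as did 53.7% of all kidney genes tested, and the median was -0.37 against -0.02. By edgeR 5 of the 18 had an unadjusted p under 0.05, as did 2.01% of kidney genes tested. EdgeR called none of them, as it called no kidney gene at all. DESeq2 called 1, beside 13 of 20195 kidney genes. The part of these hepatocyte genes in the Hrg result in kidney was not tested.

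Genes around the cluster were counted in the same fits. Within 500 kb of its ends 22 other genes were listed, of which 15 were tested in each tissue, with 0 called by edgeR, where 1% of liver and 0% of kidney genes were called. In liver 12 of the 15 had a log2 fold change below 0, beside 52% of all genes, and their median was -0.48, against -0.02 over all genes. Without normal diet libraries 1 and 2 that median was -0.093. In kidney 10 of 15 were below 0, beside 53.7% of all genes, and the median was -0.04, against -0.02. The nearest measured gene that lies wholly before Ahsg, 11.6 kb away, was Dnajb11, a chaperone cofactor of the endoplasmic reticulum. Its liver level was 68.4, 65.6, 78.8 and 98.2 CPM on the normal diet and 49.1, 47.7, 53.7 and 48.8 CPM on high salt, without overlap. It was the only 1 of the 15 without overlap, where 6.05% of liver genes were lower in this way. The log2 fold change was -0.64, beside -0.65 for Hrg, with an edgeR adjusted p of 0.0849. Its DESeq2 adjusted p was 0.00415, where DESeq2 called 1094 of 19567 liver genes. In kidney Dnajb11 stood at -0.04. Gm30505, named for its position and not by the rule, overlaps Ahsg and the end of Dnajb11 on the opposite strand, and Gm6493 lies inside Kng2. The sources used here do not say whether counting used strand, so the assignment of reads between these overlapping genes is uncertain. In liver Gm30505 held 1.44 and 0.897 CPM and Gm6493 3.80 and 4.76 CPM in normal diet and high salt libraries, far below the members they overlap.

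Next to Dnajb11, Tbccd1, a gene of centrosome positioning, had a liver log2 fold change of -0.48 (edgeR adjusted p = 0.166). On the other side of the cluster Eif4a2, an RNA helicase of translation, stood at -0.51 (adjusted p = 0.322) and Rfc4, a subunit of the clamp loader of replication, at -0.37 (adjusted p = 0.392). Gm45338, further out, stood at -0.74 (adjusted p = 0.141). Without normal diet libraries 1 and 2 these values were -0.21 for Tbccd1, -0.057 for Eif4a2, -0.054 for Rfc4 and -0.33 for Gm45338. Without library 3 edgeR called Tbccd1 (adjusted p = 0.0485) and Gm45338 (adjusted p = 0.0449), among 765 of 15471 liver genes. No other gene tested in the region had the pair of directions of Hrg without overlap, a pair found in 42 (0.307%) of 13669 genes. Hrg was chosen for this pair, and at so low a share its absence from so few genes says little about the region.

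**Figure D5:**
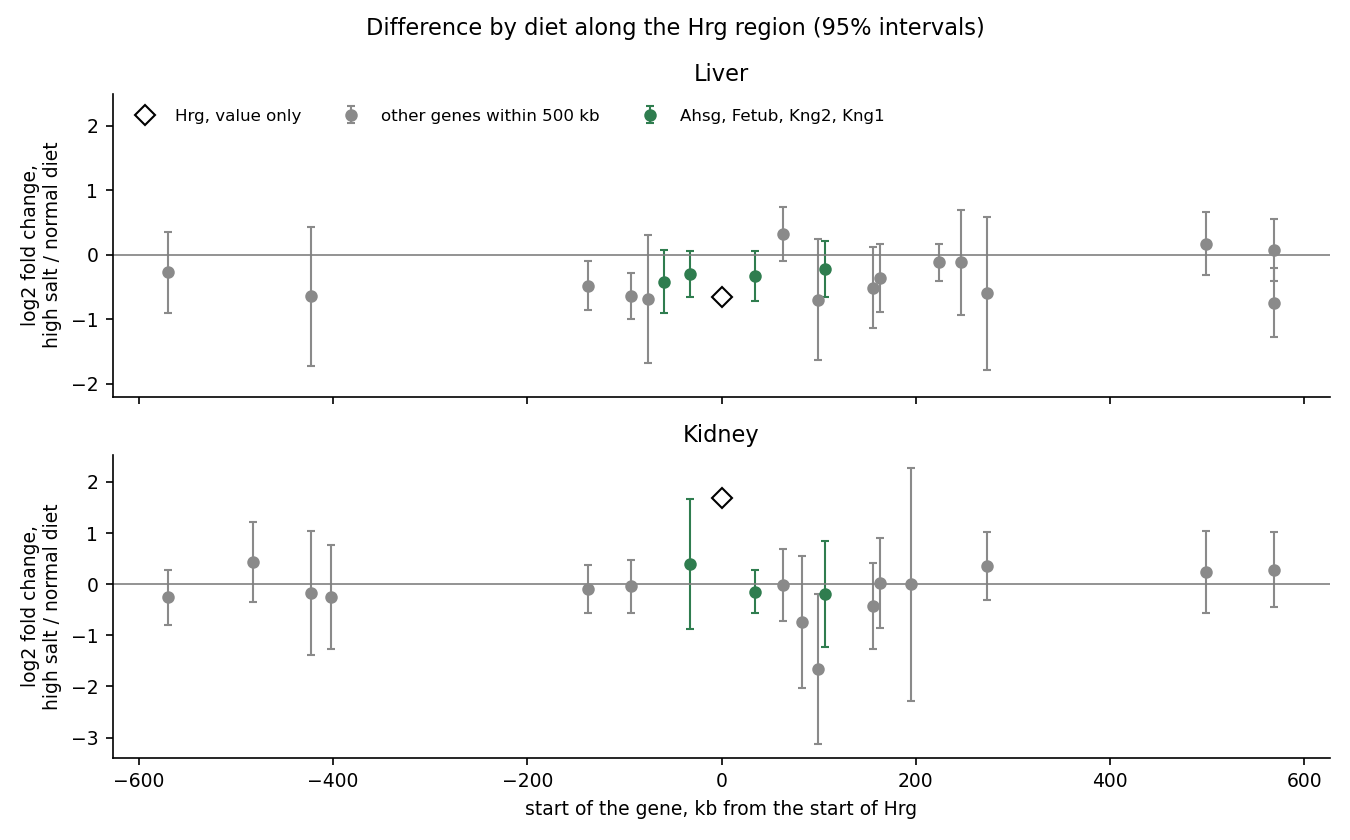
Log2 fold change of high salt against normal diet for genes within 500 kb of the cluster, by distance of their start from that of Hrg, in liver (top) and kidney (bottom); bars are 95% intervals from edgeR, green marks Ahsg, Fetub, Kng2 and Kng1, and the diamond is Hrg as a value only. In liver 12 of 15 other genes lie below 0. In kidney Hrg, which was chosen for its higher level there, lies at 1.68.

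Partners of the cluster proteins were described by lists. Of 16 kallikrein-kinin genes 12 were tested in liver and 11 in kidney, and edgeR called none. At an unadjusted p under 0.05 were 3 and 0 of them, beside 3205 of 15130 liver and 318 of 15847 kidney genes. Their medians were 0.02 in liver and 0.01 in kidney. Klkb1, plasma prekallikrein, which cuts high molecular weight kininogen, had liver levels of 294 and 298 CPM and F12, which activates it, 236 and 240 CPM on the normal and high salt diets. F11, which circulates bound to kininogen, had 72.4 and 36.2 CPM, with a fitted log2 difference of -1.0 that was not called (edgeR adjusted p = 0.0583). Normal diet library 4 held 103 CPM of it, against at most 66.3 in the others. F11 was called by DESeq2 (adjusted p = 0.00055), by limma on the deposited values (adjusted p = 0.0466 with a pseudocount of 1) and by edgeR without normal diet library 3 or 4 (adjusted p = 0.0363 and 0.0407). Its value was -0.46 with all libraries in 1 fit.

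Of the whole list 7 genes lay above 0 in liver and 5 below. Among peptidases that cut kinins, Mme, neprilysin, had a log2 fold change of 0.93 (adjusted p = 0.167) and Ece1, endothelin-converting enzyme, of 0.64 (adjusted p = 0.167). Others lay below 0, with Cpm at -0.36 and Cpn2 at -0.33, named here beside the rule to show the split. EdgeR called Mme with library totals alone (adjusted p = 0.0376) and without normal diet library 3 (adjusted p = 0.0211). In kidney Klk1, tissue kallikrein, which cuts low molecular weight kininogen, stood at 568 ± 149 and 581 ± 88.6 CPM on the normal and high salt diets, beside the abundant Kng2. Bdkrb2, the constitutive bradykinin receptor, was at 0.417 and 0.266 CPM there and under the filter.

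Of the other cystatins, Cst3 and Cstb were tested in liver, at -0.37 (adjusted p = 0.201) and -0.40 (adjusted p = 0.334), and at 0.07 and -0.36 in kidney. Of 11 proteases that cystatins or fetuin-B inhibit, 8 were tested in liver and 10 in kidney, with medians of -0.20 and 0.01. EdgeR called none, with 2 and 0 at an unadjusted p under 0.05, beside 3205 of 15130 liver and 318 of 15847 kidney genes. Ctsl and Ctsh, lysosomal cathepsins, stood at -0.53 and -0.84 in liver (edgeR adjusted p = 0.142 each) and Lgmn, legumain, at -0.33 (adjusted p = 0.374). DESeq2 called Ctsl (adjusted p = 0.0328). Without normal diet libraries 1 and 2 Ctsl stood at -0.33, Ctsh at -0.31, Cst3 at -0.18 and Cstb at -0.038, and without library 4 Lgmn stood at -0.14. The 13 ligands of histidine-rich glycoprotein had a median of -0.41 in liver, with 9 below 0 and none called by edgeR or DESeq2, and of -0.04 over 10 tested in kidney. Fgg, the fibrinogen gamma chain, stood at -0.73 (adjusted p = 0.175), Fcgr1, an Fc receptor, at -0.74 (adjusted p = 0.261) and Vtn, vitronectin, at -0.41 (adjusted p = 0.253). Without normal diet library 4 the list median was -0.13 and Fcgr1 stood at -0.33.

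Of 16 hepatocyte transcription factors, edgeR called 1 in liver and none of 11 tested in kidney, with medians of 0.30 and 0.09. DESeq2 called 3 in liver, beside 1094 of 19567 liver genes. Hlf, a circadian factor of the PAR family, rose in liver from 23.3 to 43.1 CPM, a fitted log2 difference of 0.88 (adjusted p = 0.0364), where edgeR called 0.595% of all liver genes as higher. All 4 high salt libraries were above the normal diet libraries, as for 6.44% of liver genes. The call was kept in 14 of 21 alternatives. It was lost without normal diet library 1 or 2, without HS5, HS6 or HS8, with HS5 and HS6 summed and without libraries 1 and 2 together, at adjusted p from 0.0950 to 0.160.

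The genes whose pattern over the 14 libraries was most like that of Hrg were found by the root mean square difference of log2(CPM + 0.5), centred in each tissue, among 10353 genes with a mean of 50 counts in each tissue. A gene that does not vary would lie at 0.589. Trim12a lay at 0.344, Srd5a1, steroid 5-alpha-reductase, at 0.352, Akr1b3, aldose reductase, at 0.416, Gm16378 at 0.418 and Aldh1a7, an aldehyde dehydrogenase, at 0.420. By the same measure Fetub lay at 0.530, Kng2 at 0.614, Kng1 at 0.646 and Ahsg at 1.03, where 17.8% of the eligible genes lay nearer to Hrg than an unvarying gene. Only Kng2 had enough counts in both tissues to be ranked, at 2811.

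Among these genes Aldh1a7 had 193 to 245 CPM in liver on the normal diet and 154 to 201 CPM on high salt, which overlapped. In kidney it had 16.8, 11.7 and 5.28 CPM on the normal diet and 37.9, 30.6 and 25.1 CPM on high salt, without overlap. Akr1b3 had 4.03 to 5.89 and 2.42 to 3.41 CPM in liver without overlap, and 10.9 to 16.2 and 14.3 to 20.2 CPM in kidney with overlap. None of the 5 had the diets apart in both tissues, as Hrg had. The list depended on these settings: 1 of the 5 was shared when the minimum was a mean of 10 counts, and 2 of the 5 when HS5 and HS6 were summed.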

How the data were processed

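RNA of liver (8 libraries) and kidney (6 libraries) was sequenced from SMARTER mRNA-Seq libraries, per the labels. Deposited were expected counts for each gene, from Partek E/M quantification per the file names, and normalized values, a signal per gene whose scaling is not given in the sources used here. The submitters' processing notes name Partek 7.0, STAR 2.5.3a, DESeq2 and mm10, without order. Groups follow the labels. The high salt liver columns carry no title numbers and were used as replicates of their group.

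Rounded expected counts went into edgeR 4.0.16 under R 4.3.3, with quasi-likelihood tests, TMM and filterByExpr, separately by tissue with diet alone and without a block. A joint fit of 14 libraries over 17600 shared genes gave the interaction and the tissue contrast. A Benjamini-Hochberg adjusted p under 0.05 was called. The fits were tested on simulated data. Biological variation between libraries (edgeR's common coefficient) came to 0.314 for liver, 0.300 for kidney. Levels per kilobase use GENCODE M21 exon unions. Motifs were chosen after the promoters were seen. Limits for counts of 0 cover counting error only, since PCR copies of a molecule were not removed by identifiers.

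The members and gene lists were chosen with earlier results of these data known. By rule, the text names the members, the 5 genes most like Hrg, the 2 nearest measured genes on either side, those of the flanks and lists with an adjusted p under 0.05 or else the 3 smallest p in liver, and Klkb1, F12, Klk1 and Bdkrb2. The rule also took the extremes of each marker list, which are not given. Alternatives were RLE, upper quartile and library-total scaling, DESeq2 1.42.0, limma 3.58.1 on log2 of the deposited signal with a pseudocount of 1 or 0.1, other filters (none, or 10 counts in each library), mitochondrial genes removed, Kng1 and Kng2 summed, HS5 and HS6 summed, all libraries in 1 fit, a replicate block in kidney and each library left out. Leaving out normal diet liver libraries 1 and 2 was added after seeing the data. The human transgene was not analysed here.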

Additional observations from a re-analysis of the deposited data

Results flagged for a closer look

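Hrg is listed because all its liver libraries were lower and all its kidney libraries higher on high salt, a log2 difference of -2.33 between the tissues that was not tested, since it chose the gene. In 7 of 68 liver groups of 4 libraries, a library stood far from the other 3, where chance gives about 1 in 20. Kng2 was low in normal diet library 3, at 187 CPM against 254 CPM in the nearest library. Normal diet library 4 was high for St6gal1 (208 CPM), F11 (103 CPM) and Akr1b3 (5.89 CPM). Normal diet library 3 was high for Mme (19.3 CPM) and for Klk1 in liver (0.472 CPM). HS7 was low for Ece1 (73.0 CPM).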

How the results depend on the processing

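The count of 0 called neighbours in liver, kidney and the interaction was the same under every alternative run, and Hrg kept its direction in both tissues. No gene at all was called in 17 of 18 kidney alternatives and in 18 of 24 of the interaction. The constant count says little about the neighbours there. With library totals alone the median of all genes moved by 0.27 in liver and 0.23 in kidney on the log2 scale, and 92.0% of liver calls were higher genes against 59.2%. In that setting 665 liver genes were called against 152, Hrg stood at -0.38 in liver and 7.74 between the tissues, and Kng1 was at 0.028 in liver and 0.048 in kidney. Kng2 was at 0.093 in kidney and lost its tissue call at 0.35. List medians were 0.29 in liver and 0.22 in kidney for kallikrein-kinin genes, 0.069 and 0.26 for proteases, 0.57 in liver for hepatocyte transcription factors and 0.22 in kidney for ligands of histidine-rich glycoprotein. Upper quartile scaling put the tissue difference of Hrg at 7.98.

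DESeq2 called 1094 genes in liver (48.4% higher), 13 in kidney and 147 in the interaction, and put the liver protease median at -0.072, where no filter gave -0.068. With HS5 and HS6 summed, 12 liver genes were called, the protease median was -0.13, F12 was at -0.00033 and the Kng1 interaction at 0.0089. All libraries in 1 fit called 260 liver genes, with the protease median at -0.050. Without normal diet liver libraries 1 and 2, chosen after seeing the data, 52 liver genes and 1 interaction gene were called, Klkb1 was at -0.00029, the Kng1 interaction at 0.073, and the medians of other cystatins, proteases and ligands were -0.11, -0.31 and -0.77. At least 10 counts in every library gave 2 interaction genes and left 2 neighbours testable between the tissues, both called. Of the 5 genes most like Hrg, 1 was shared at a mean of 10 counts and 2 with HS5 and HS6 summed.

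Liver calls numbered 39, 41, 765 and 409 without normal diet libraries 1, 2, 3 and 4, and 18, 12 and 32 without HS5, HS6 and HS8. Over single libraries left out, interaction calls ran from 0 to 7 and Kng1 from -0.43 to 0.32 in kidney and from -0.53 to 0.22 in the interaction. In liver F12 ran from -0.076 to 0.078 and Klkb1 from -0.037 to 0.070. The protease median in liver ran from -0.25 to 0.0089 and that of hepatocyte transcription factors in kidney from -0.11 to 0.49. The Kng1 share differed by 0.393 to 1.05 percentage points in liver and by -0.116 to 0.181 in kidney. Beyond fewer libraries or genes in a fit, the cause was not tested.

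Replicate numbers occur in both diets in kidney. Same-numbered libraries correlated in their deviations at 0.486, 0.464 and -0.129, so the numbers were not taken as pairs, and not every library correlated best with its own number. A fit with the replicate block called 0 genes, as without it, with Kng2 at -0.14. No paired analysis was possible in liver because the high salt columns carry no title numbers. Depth limits Ahsg, Fetub and Kng1 in kidney, where no library held more than 58 counts of any of them.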
